A study of Mus musculus with 6 samples.

Results

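The 49 genes described here encode proteins that build ribosomes in the nucleolus. They were taken from the count table by gene symbol, as names that start with Nop, Nol, Utp or Rrp and a digit or with Polr1, to which Nolc1, Bysl, Ncl, Npm1, Fbl, Dkc1, Nip7 and Nob1 were added. The rule used no measured value, but it was chosen with earlier results of these data known. It found 49 of the 16312 genes of the table, all of them protein-coding and spread over 18 chromosomes. The name rule reaches some genes outside ribosome assembly (Nol3, an inhibitor of apoptosis, and Nol4 and Nol4l). It leaves out polymerase I subunits that the annotation lists under other names, among them Twistnb, Znrd1 and Cd3eap.

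The RNA came from haematopoietic stem cells (HSCs), the bone marrow cells that renew the blood, which were sorted by flow cytometry from male mice. The young group was 3 mice labelled Young B6 control, aged 8 to 12 weeks, and the old group was 3 mice labelled Old B6 control, aged 22 months. The series title names the substrain C57BL/6N, both groups are described as controls of a parabiosis project, and no genetic change or treatment is given for either. Total counts per library ran from 12494557 (old replicate 2) to 30931680 (young replicate 3), and levels are given as CPM, counts scaled to the TMM-adjusted size of each library. The series design describes the samples as biological replicates. In RNA pooled from many cells, fewer cells that express a gene and less RNA per cell cannot be told apart, and CPM does not measure the amount of RNA or of ribosomes in a cell.

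Ribosome assembly starts in the nucleolus, where RNA polymerase I copies the ribosomal RNA (rRNA) genes into one long precursor. Small nucleolar ribonucleoproteins (snoRNPs) modify the precursor, the small subunit processome and the factors of the large subunit fold and cut it, and late factors accompany the subunits to the cytoplasm. HSCs are known for a low rate of protein synthesis compared with their dividing progeny.

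Few of these genes, and few of all tested genes, passed the test for a difference between HSCs of old and young mice. Of the 49 members, 1 (2.04%) passed the test, against 3.99% of the 14288 genes tested (edgeR quasi-likelihood test, Benjamini-Hochberg adjusted p below 0.05). That member was lower in old mice, the direction of 1.54% of all tested genes, and none was higher, against 2.45%. The gene that fell was Bysl, a late assembly factor of the small subunit, 2.06-fold lower in old mice. The median log2 fold change (old over young) was −0.03 over the members and −0.02 over all tested genes, and 27 of the 49 values (55.1%) were below 0, against 51.8%. Without adjustment 7 members had a p below 0.05, all of them lower in old mice, which is 14.3% of the members, against 16.5% of all tested genes in either direction and 7.63% in the lower direction. DESeq2 called 3 members (Bysl, Nop9 and Utp3) and 7.70% of all tested genes.

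Promoter sequence of 4 members is given as the 250 bases before the RefSeq transcription start on GRCm38, 5′ to 3′ on the strand of the gene. Bysl is the called gene, Utp3 has the next smallest p, and Utp18 and Nop58 are members without a call that hold the other motifs searched. Capitals mark matches to CACGTG (the E-box that Myc proteins can bind), to TCGCGA and to CGGAAG (a core that ETS proteins can bind), each searched on both strands.
Bysl: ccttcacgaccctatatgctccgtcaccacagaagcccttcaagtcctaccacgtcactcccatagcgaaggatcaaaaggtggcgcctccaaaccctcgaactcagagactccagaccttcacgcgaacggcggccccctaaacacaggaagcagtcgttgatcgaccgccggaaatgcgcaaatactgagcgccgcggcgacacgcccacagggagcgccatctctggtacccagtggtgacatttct
Utp3: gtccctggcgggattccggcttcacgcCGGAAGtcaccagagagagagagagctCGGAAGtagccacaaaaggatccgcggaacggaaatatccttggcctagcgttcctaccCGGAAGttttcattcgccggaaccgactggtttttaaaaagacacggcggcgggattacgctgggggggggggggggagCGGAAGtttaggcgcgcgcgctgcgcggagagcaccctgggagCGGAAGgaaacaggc
Utp18: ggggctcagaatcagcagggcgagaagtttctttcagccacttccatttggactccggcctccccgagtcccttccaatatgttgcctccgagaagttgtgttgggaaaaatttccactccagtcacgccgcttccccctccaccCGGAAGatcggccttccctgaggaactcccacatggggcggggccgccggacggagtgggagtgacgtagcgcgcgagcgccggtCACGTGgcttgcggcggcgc
Nop58: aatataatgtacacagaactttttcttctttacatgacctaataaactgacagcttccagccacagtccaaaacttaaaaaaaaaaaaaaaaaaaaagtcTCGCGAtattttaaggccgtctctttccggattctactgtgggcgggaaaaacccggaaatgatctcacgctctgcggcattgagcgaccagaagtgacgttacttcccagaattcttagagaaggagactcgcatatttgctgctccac

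These stretches lie at chr17:47611493-47611742 (Bysl, minus strand), chr5:88554212-88554461 (Utp3, plus strand), chr11:93885767-93886016 (Utp18, minus strand) and chr1:59684756-59685005 (Nop58, plus strand). The Bysl stretch holds none of the 3 motifs and the Utp3 stretch holds CGGAAG 5 times. RefSeq windows of 300 bases (250 before and 50 after the start) were found for 39 of the 49 members. CGGAAG stood in 21 of the 39 (53.8%), and in 32.4% of the 11079 tested genes with a window. CACGTG stood in 7 of the 39 (17.9%) and in 11.1% of tested genes, and TCGCGA in 4 (10.3%) and 5.29%. A match describes the letters of a window and does not show that a protein binds there.

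**Figure D1:**
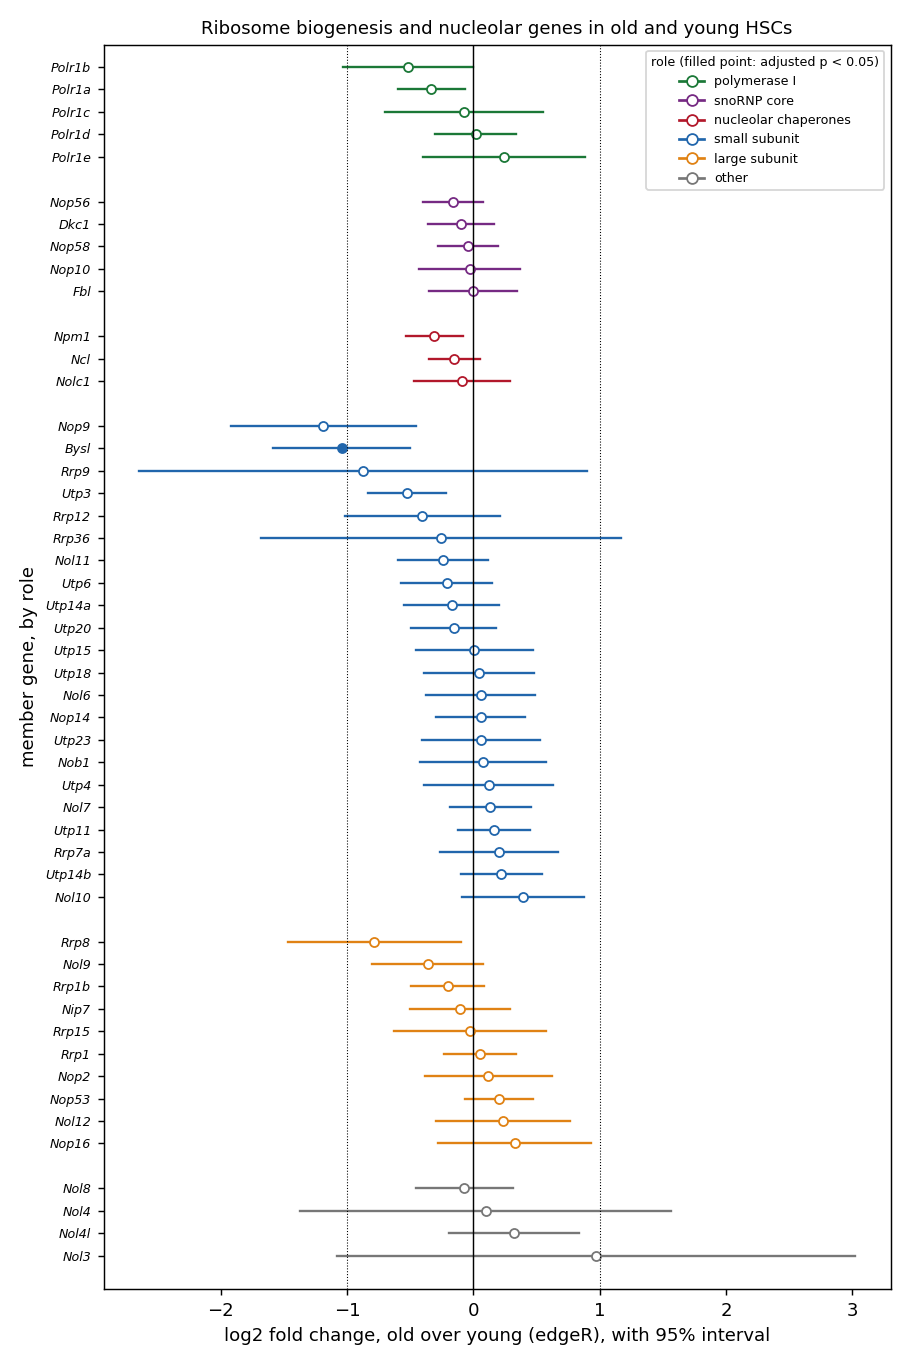
Log2 fold change, old over young, of each of the 49 members (points, with their 95% intervals as lines), grouped by role. The filled point is Bysl, the gene with an adjusted p below 0.05, and 40 of the 49 intervals lie between the dotted lines at −1 and 1.

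The intervals show how large a change could have been present. The 95% interval of the log2 fold change, taken gene by gene without adjustment, lay inside −1 to 1, a 2-fold change in either direction, for 40 of the 49 members (81.6%) and for 56.1% of all tested genes. It lay inside a 1.5-fold change for 26 members (53.1%) and for 27.4% of all tested genes. The median standard error was 0.20 for the members and 0.26 for all tested genes. The members also had higher CPM, not corrected for gene length, with a median of 46.9 CPM against 21.4 CPM. The 9 intervals that reached a 2-fold change were those of Bysl, Nop9, Rrp8, Polr1b and Rrp12 on the lower side, and of Nol3, Nol4, Rrp9 and Rrp36, whose group means were all below 10 CPM.

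**Figure D2:**
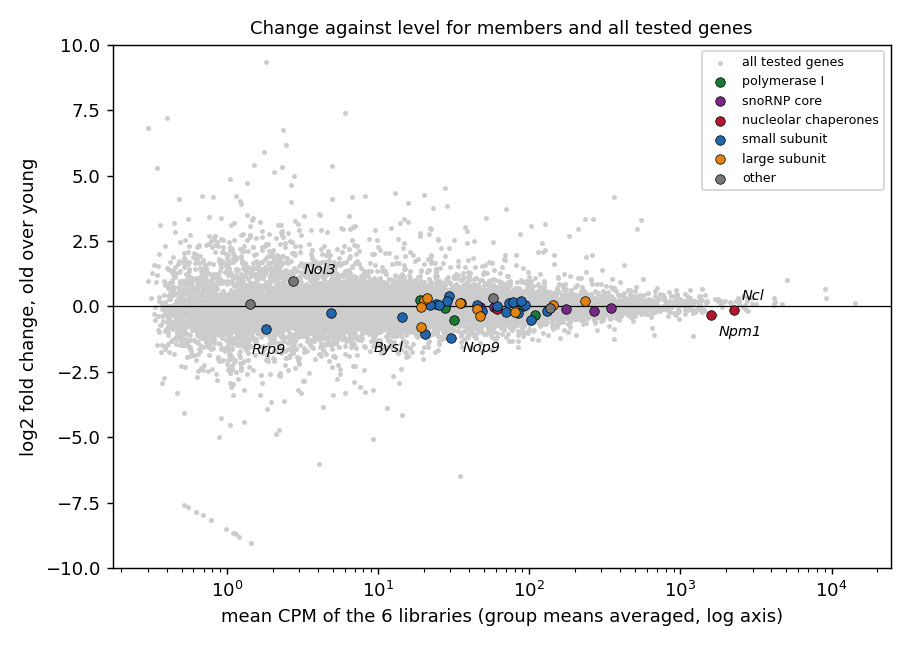
Log2 fold change, old over young, against mean CPM (log axis) for all 14288 tested genes (grey) and the 49 members (coloured by role). The members form a narrow band about 0 above 10 CPM, with Nop9 (−1.19) and Bysl (−1.04) lowest.

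The small subunit group held 22 members, the proteins of the processome that surrounds the early precursor together with later factors. Bysl was the 1 called member, none was higher, and the median log2 fold change was 0.02, with 10 members below 0 and 12 above. Bysl, bystin, lies on chromosome 17 from 47599331 to 47611492. It stood at 26.6, 29.1 and 26.3 CPM in young replicates 1 to 3 and at 17.5, 11.0 and 11.3 CPM in old replicates 1 to 3. All old libraries were below all young ones. The log2 fold change was −1.04 ± 0.25 SE (95% interval −1.58 to −0.50, adjusted p = 0.0381). The call was lost without young replicate 1, 2 or 3 (adjusted p = 0.0663, 0.104 and 0.0751) and without old replicate 2 or 3 (adjusted p = 0.142 and 0.179), while the log2 value stayed between −1.29 and −0.92 over the 6 fits with 1 library left out. Exons of Bysl overlap those of Ccnd3, which encodes cyclin D3, on the opposite strand over 361 bases, and 8.20% of the 50-base stretches of Bysl transcripts occur there. Ccnd3, looked at for this overlap, had a log2 value of −0.21 (adjusted p = 0.604).

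Utp3, a processome component on chromosome 5 from 88554462 to 88556090, was the member with the next smallest p. It stood at 136, 118 and 112 CPM in the young libraries and at 96.0, 84.0 and 74.0 CPM in the old ones, again without overlap. The log2 fold change was −0.53 ± 0.14 SE and did not pass (adjusted p = 0.0639). With library size alone as the scaling it did (adjusted p = 0.0377). Nop9, an RNA-binding protein of the processome on chromosome 14 from 55745693 to 55755500, had the lowest log2 value of all members, −1.19 ± 0.34 SE (adjusted p = 0.0771). It stood at 59.0, 46.4 and 22.3 CPM in young mice and at 20.3, 12.6 and 22.8 CPM in old mice. Young replicate 3 thus lay within the range of the old libraries, and without it Nop9 passed with a log2 value of −1.50 (adjusted p = 0.015). Of the 50-base stretches of Nop9 transcripts, 27.8% also occur on the opposite strand, most of them in Cideb, so reads of these genes may not be separated where strand was not used in counting. In the authors' deposited table, which gives young over old, Bysl (0.88, adjusted p = 0.00585) and Nop9 (0.91, adjusted p = 0.0306) passed, and Utp3 (0.47, adjusted p = 0.0749) did not. The authors' deposited table called 2 of the 49 members (4.08%), against 6.17% of its genes with an adjusted p. With its sign turned to old over young, its direction was that of edgeR for 42 of the 49 members. The share over all tested genes was 90.6%.

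The rest of the small subunit group did not pass in the edgeR test of all 6 libraries. Utp20, a large scaffold protein, stood at 120, 121 and 174 CPM in young and 122, 119 and 131 CPM in old mice, and Utp18 at 23.8, 27.8 and 23.4 CPM and 23.3, 26.1 and 27.8 CPM. The ages overlapped for both, with log2 intervals of −0.49 to 0.18 and −0.39 to 0.48, and young replicate 3 was the highest for Utp20. Utp11 was higher in all old libraries (84.0, 84.7 and 80.0 CPM) than in all young ones (76.9, 70.2 and 74.8 CPM), with a log2 value of 0.17 ± 0.13 SE that did not pass (adjusted p = 0.602). Nol10 had the highest log2 value of the group, 0.39 ± 0.22 SE (adjusted p = 0.428). Rrp12, a factor of subunit export, had a log2 value of −0.40 (adjusted p = 0.547). Utp14b, a retrogene copy of Utp14a, had one of 0.22 (adjusted p = 0.521), and it shares 244 exonic bases with Acsl3 on the same strand.

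Some members of this group were set apart by 1 library. The young libraries held Rrp36 at 10.9, 1.37 and 3.73 CPM, replicate 1 being far the highest, and the old ones at 5.91, 2.43 and 4.90 CPM. Rrp9, a protein of the U3 snoRNP, stood at 4.93, 1.18 and 1.04 CPM in young and at 1.86, 0.252 and 1.69 CPM in old mice. Its value in old replicate 2 rests on 3 counts. Without young replicate 1 the log2 value of Rrp36 moved from −0.25 to 0.79 and that of Rrp9 from −0.87 to 0.22, so the direction of both rests on that library.

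**Figure D3:**
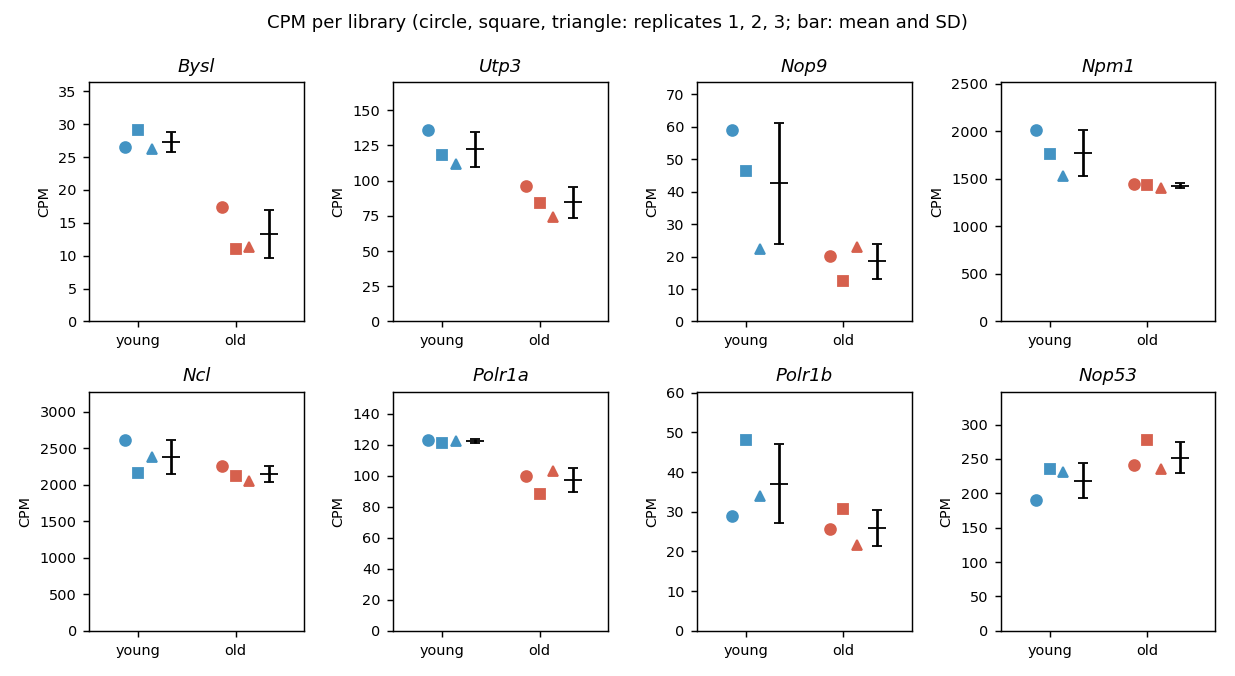
CPM of 8 members in each library (circle, square and triangle are replicates 1, 2 and 3), with the mean and SD of each group as a bar. The groups do not overlap for Bysl, Utp3, Npm1, Polr1a and Nop53, and they overlap for Nop9, Ncl and Polr1b.

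Among the 5 polymerase I members none passed. An unadjusted p below 0.05 was found for 2 (40.0%), both lower in old mice. Over all tested genes the share was 16.5% in either direction and 7.63% in the lower direction. Polr1a, the largest catalytic subunit, on chromosome 6 from 71909053 to 71984935, stood at 123, 121 and 122 CPM in young and at 99.8, 88.2 and 103 CPM in old mice. The young libraries were almost equal and lay above all old ones. The log2 fold change was −0.33 ± 0.12 SE (adjusted p = 0.183). Polr1b, the second catalytic subunit, stood at 29.0, 48.2 and 34.1 CPM in young and at 25.7, 30.6 and 21.6 CPM in old mice, and the groups overlapped. Its log2 value was −0.52 ± 0.23 SE (adjusted p = 0.298). Polr1c and Polr1d, which polymerase III also uses, and Polr1e ran from −0.07 to 0.24 on the log2 scale. Summed over the 5 members the level was 314, 282 and 288 CPM in young and 259, 265 and 261 CPM in old mice. Every young library was above every old one in this sum. It leaves out polymerase I subunits under other names. Among them Twistnb, Znrd1 and Cd3eap did not pass. Their log2 values were 0.02 for Twistnb, 0.02 for Znrd1 and 0.35 for Cd3eap. Twistnb stood at 194, 138 and 104 CPM in young and at 119, 171 and 152 CPM in old mice.

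The snoRNP core comprises Fbl (fibrillarin, the methyltransferase), Nop56 and Nop58 of the box C/D particles and Dkc1 (dyskerin, the pseudouridine synthase) and Nop10 of the H/ACA particles. None of the 5 passed, and their log2 values lay in a narrow range from −0.16 to below 0. Fbl stood at 62.6, 58.7 and 55.5 CPM in young and at 59.3, 49.9 and 66.9 CPM in old mice, and its 95% interval ran from −0.35 to 0.34. Nop58 stood at 382, 324 and 348 CPM in young and at 349, 313 and 362 CPM in old mice (interval −0.28 to 0.19). The ages overlapped for both genes. Nop56 stood at 310, 277 and 268 CPM in young and at 263, 270 and 232 CPM in old mice, with a log2 value of −0.16 ± 0.11 SE (adjusted p = 0.539). Dkc1 had a log2 value of −0.10 ± 0.12 SE (adjusted p = 0.753). For each of these 4 genes the interval excluded a 1.5-fold change in either direction. Nop56, Nop58 and Dkc1 also carry snoRNA genes within their bodies on the same strand (5, 4 and 1 in the annotation), as do Ncl (3) and Nop53 (1). The shares of 50-base stretches also found in other genes were 19.7% for Fbl and 18.6% for Nop56, so their counts are less certain than those of Nop58 (1.67%).

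Npm1 and Ncl, from the group of 3 nucleolar chaperones, were the most abundant of all 49 members. Npm1, nucleophosmin, a histone and ribosome chaperone on chromosome 11 from 33152287 to 33163206, stood at 2012, 1764 and 1531 CPM in young and at 1448, 1434 and 1405 CPM in old mice. The groups did not overlap, although the lowest young library was close to the old ones. The log2 fold change was −0.31 ± 0.10 SE (adjusted p = 0.143), and the 95% interval of −0.53 to −0.08 excluded a 1.5-fold change. Npm1 passed without young replicate 3 (log2 value −0.40, adjusted p = 0.0382) and with library size alone as the scaling (log2 value −0.36, adjusted p = 0.0442). It passed in no other of the 12 alternative fits. With 1 library left out its log2 value ran from −0.40 to −0.21. Of its 50-base stretches 24.3% also occur in other annotated genes, most often Gm9118, so part of its reads may be shared. Ncl, nucleolin, an RNA-binding protein of the dense nucleolus on chromosome 1 from 86344719 to 86359400, stood at 2617, 2157 and 2374 CPM in young and at 2262, 2125 and 2047 CPM in old mice. Its log2 value was −0.15 ± 0.09 SE (adjusted p = 0.473), and the groups overlapped. Nolc1, the third member of this group, had an adjusted p of 0.855.

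The large subunit group held 10 members, 5 below and 5 above 0, with a median log2 value of 0.01 and no call. Its summed level was 657, 660 and 656 CPM in young and 679, 657 and 675 CPM in old mice. Rrp8, a methyltransferase that also silences rRNA genes, had the lowest value, −0.78 ± 0.31 SE (adjusted p = 0.225), and stood at 34.3, 23.3 and 15.5 CPM in young and at 17.0, 10.4 and 14.8 CPM in old mice. Its exons overlap Ilk on the opposite strand over 355 bases. Nol9, a kinase of rRNA ends, had a log2 value of −0.36 (adjusted p = 0.422). Nop53 was higher in all old libraries (242, 278 and 236 CPM) than in all young ones (190, 235 and 231 CPM), with a log2 value of 0.20 ± 0.12 SE (adjusted p = 0.46). Rrp1b was lower in all old libraries (80.5, 68.5 and 73.6 CPM) than in the young ones (85.3, 84.2 and 86.9 CPM), with a log2 value of −0.20 ± 0.13 SE (adjusted p = 0.509). Neither difference passed. Nop16 had the highest value of the group, 0.33 (adjusted p = 0.632), and Nip7 stood at −0.10 (interval −0.50 to 0.29).

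The 4 members outside these roles did not pass. Nol4l had a log2 value of 0.32 ± 0.23 SE (adjusted p = 0.565), with 89.8 CPM in old replicate 3 against 49.0 and 53.3 CPM in the other old libraries. Nol3 stood at 0.142, 4.86 and 0.520 CPM in young and at 5.15, 3.02 and 2.66 CPM in old mice, and its interval of −1.08 to 3.02 leaves its direction undetermined. Exons of Nol3 overlap 4931428F04Rik on the opposite strand, and 47.4% of its 50-base stretches occur on that strand.

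Over all members, 7 of 49 (14.3%) had CPM that did not overlap between the ages, against 22.4% of all tested genes. Of these 7, Bysl, Utp3, Npm1, Polr1a and Rrp1b were lower and Nop53 and Utp11 higher in old mice. The summed level of the 49 members was 8058, 7149 and 7102 CPM in young and 6857, 6627 and 6664 CPM in old mice, a mean of 7436 ± 539 against 6716 ± 123 CPM (SD, n = 3), so that the old level was 90.3% of the young one. Every old library was below every young one, also with young replicate 1, the highest, set aside. Npm1 and Ncl held 55.8% of this sum in young and 53.2% in old mice. Without the 3 members of highest CPM (Ncl, Npm1 and Nop58) the old level was 95.5% of the young one. The libraries then overlapped (2850 to 3047 CPM in young and 2755 to 2850 CPM in old mice).

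**Figure D4:**
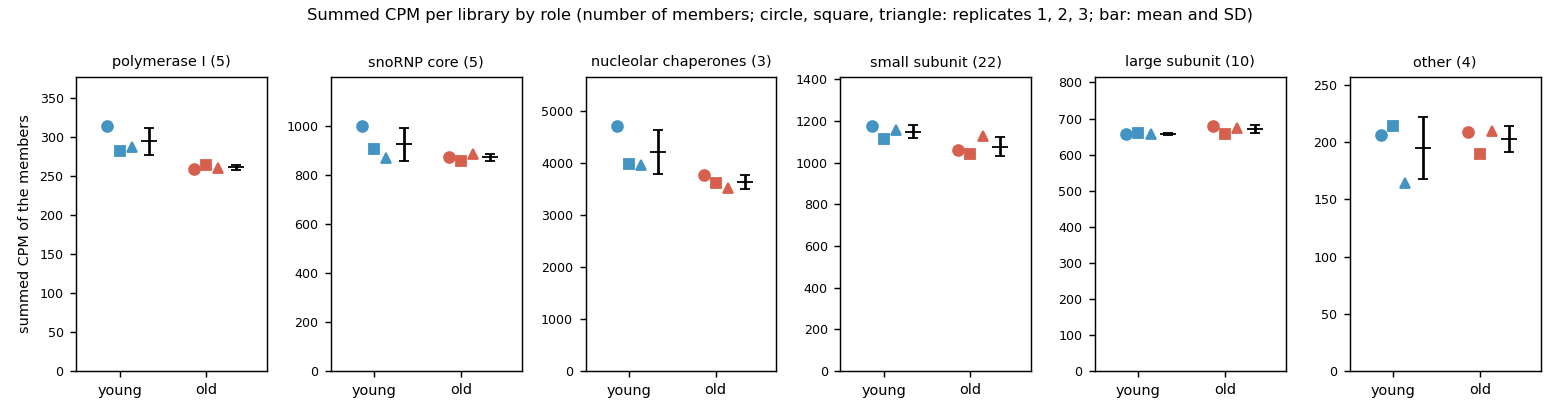
Summed CPM of the members of each role in each library (circle, square and triangle are replicates 1, 2 and 3), with the mean and SD of each group as a bar, each axis starting at 0. The sums of the 5 Polr1 members and of the nucleolar chaperones are higher in all young libraries than in all old ones. The large subunit sums lie between 656 and 679 CPM in all 6 libraries.

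Levels can be compared between genes only per length. Per kilobase of exon sequence, averaged over both ages, Npm1 had 600 CPM, Ncl 222, Nop56 65.8 and Utp3 63.5, and the lowest members were Rrp9 (0.622) and Nol4 (0.25). With the length of the principal transcript instead, chosen after seeing the data, Nop58 moved from rank 10 to rank 3 and Utp3 from rank 4 to rank 8. The exon sequence of Nop58 spans 10758 bases and its principal transcript 1713, while both lengths of Utp3 are 1629 bases. The order of the members in the middle therefore depends on the length used, while Npm1 and Ncl came first in both.

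Few of the other genes of the pathway passed a test for a difference either, where 3.99% of all tested genes passed in edgeR. Of 140 listed symbols 134 were found and tested, and none passed in edgeR, 6 (4.48%, against 16.5% of all tested genes) had an unadjusted p below 0.05 and DESeq2 called 1 (Imp3), and the median log2 value was −0.05. The groups did not overlap for 22 of the 134 (16.4%, against 22.4% of all tested genes). In the list of 54 large subunit factors, the smallest p was that of Rrs1, an assembly factor of that subunit, with a log2 value of −0.81 ± 0.30 SE (adjusted p = 0.193). In the list of 37 small subunit factors it was that of Imp3, which binds the U3 snoRNA, with a log2 value of 0.71 ± 0.20 SE (adjusted p = 0.0683). Young mice had a mean of 30.3 ± 5.31 CPM of Imp3 and old mice one of 49.8 ± 6.92 CPM (SD, n = 3), without overlap of the libraries. Among 14 genes of rRNA transcription, which include Twistnb, Znrd1 and Cd3eap, no p was below 0.05. The smallest was that of Baz2a, a subunit of the complex that silences rRNA genes, at −0.21 ± 0.11 SE (adjusted p = 0.402). The genes with the smallest p of the 12 snoRNP assembly factors and the 17 exosome and trimming genes were Snu13 (0.31, adjusted p = 0.267) and Exosc8 (−0.41, adjusted p = 0.337).

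Myc proteins are known activators of ribosome assembly genes. Mycn rose by 0.74 ± 0.12 SE on the log2 scale (adjusted p = 0.00511), from 126 ± 14.4 to 210 ± 10.1 CPM (SD, n = 3). The mean of Myc was 333 ± 48.0 CPM for young and 249 ± 9.78 CPM for old mice, a log2 value of −0.42 that did not pass (adjusted p = 0.086). Myc passed, lower in old mice, with library size alone (−0.47, adjusted p = 0.0346), with DESeq2 (−0.41, adjusted p = 0.0317) and without young replicate 3 (−0.53, adjusted p = 0.0213). In the edgeR test of all 6 libraries 1 of 10 measured genes of the Myc network, Mycn, was called.

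The same libraries differed in other gene groups. Of 20 genes of S phase 15 fell and of 20 genes of G2 and mitosis 14 fell, with medians of −0.66 and −1.05 on the log2 scale. Of 20 immediate early genes 19 rose. Over all tested genes 1.54% were called lower and 2.45% higher. The lists in this paragraph were chosen with earlier results of these data known, so their counts are a description only. All 10 HSC markers checked were detected, with a summed level of 3321 to 3918 CPM per library, and 2 of them rose in old mice, Procr (log2 value 0.95, adjusted p = 0.00097) and Slamf1 (1.47, adjusted p = 0.00103). Of 12 tested macrophage markers 8 fell, of 12 erythroid ones 3 fell and of 5 neutrophil ones 4 fell. With limma-voom the erythroid genes Car1 and Ermap (adjusted p = 0.0938 and 0.0525) and the neutrophil genes S100a9 and Ngp (adjusted p = 0.162 and 0.341) did not pass. Ngp was also lost without young replicate 1 (log2 value −2.85 in place of −5.04, adjusted p = 0.0987) and without old replicate 1, 2 or 3 (0.123, 0.133 and 0.107), and S100a9 without old replicate 1 or 2 (0.083 and 0.0853). Young replicate 1, which had the highest summed level of the members, also had the highest sum of neutrophil markers (237 CPM, against 16.6 and 48.4 CPM in the other young libraries and 5.57 to 8.70 CPM in old ones) and of erythroid markers (1324 CPM, against 794 to 961 CPM in the other libraries). The macrophage sums ran from 198 to 247 CPM in young and from 193 to 219 CPM in old libraries, most of it Lyz2, while Fcna, Cd5l, Adgre1 and C1qb were at 0 in all old libraries and between 0.569 and 2.78 CPM in young ones. The part of these differences in the levels of the members was not tested. Over all genes, 350 were higher and 220 lower, a split of 310 and 298 with library size alone. Of the 49 members, that scaling called 3 (Bysl, Npm1 and Utp3), all lower, and none higher. It called 4.26% of the 14288 genes tested, in either direction.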

How the data were processed

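Low-input RNA libraries of HSCs sorted from 3 young and 3 old mice were sequenced from one end over 50 bases, as the labels and the design text say. The deposited estimated counts are whole numbers for 16312 genes. Per the submitters' processing notes, Salmon, DESeq2 and GRCm38 were used, and no source used here gives their versions, their roles or the strand setting. A second deposited table by the authors holds a base mean (a normalised signal), a log2 fold change with its standard error, a test score and a p-value with its adjusted p-value per gene. Identifiers were matched to GENCODE release M21 (GRCm38), which gave 16301 symbols.

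Counts were fitted in R 4.3.3 with edgeR 4.0.16 (its default expression filter, set to 10 counts and a total of 15, TMM scaling, quasi-likelihood F test, two-sided) over all 14288 genes that passed, and all 49 members passed. The standard error for edgeR was calculated back from the test, as the absolute log2 fold change divided by the square root of the F value. Intervals are 95% intervals from this standard error. DESeq2 1.42.0 and limma 3.58.1 served as alternatives, together with other scalings, no filter, robust dispersion and leaving out each library. Replicates are numbered in sample order, without pairing. By title the library numbers are 1, 5 and 24 for young and 28, 29 and 30 for old mice. Age and library order therefore cannot be told apart, and no batch is labelled. For young replicate 2 the title and the description name different library numbers, and its column was matched by title; without it no member passed. Shared sequence was counted as the 50-base stretches of a member's transcripts that occur in transcripts of other genes.

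The members and lists were chosen with earlier results of these data known. Genes named are the called members, the 2 of each role with the smallest p, the 4 with the highest level per kilobase, the 3 with the largest fold change each way at 10 CPM or more, and for each other list the 1 or 2 with the smallest p. Chosen after their values were seen were Fbl, Nop58, Nop53, Rrp1b, Utp11, Rrp9, Rrp36, Utp18, Utp20, Rrp12, Utp14b, Nip7 and Ccnd3. So was any other gene named here, among them the macrophage genes besides Fcna.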

Additional observations from a re-analysis of the deposited data

How the results depend on the processing

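No paired analysis was possible because the labels give the groups no shared replicate numbers. The count of the 49 members called lower was 1 and moved to 3 with library size alone and to 3 with DESeq2. It ran from 0 to 2 with 1 library left out, and none was called higher in any of the 12 alternative fits. The share of all tested genes called in either direction was 3.99% in the main fit, 4.26% with library size alone and 7.70% with DESeq2. With 1 library left out that share ran from 1.67% to 3.23%. Over all genes the calls moved to 487 lower and 613 higher with DESeq2, and with 1 library left out they ran from 79 to 167 lower and from 166 to 308 higher. DESeq2 called 1 other pathway gene higher. The median log2 value of the members lay between −0.08 (library size alone) and 0.04 (without young replicate 1), and kept within the spread between libraries.

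Of 324 alternative values of the 27 named members, 299 kept direction and call and 14 changed sign, in genes close to 0 or of low count. Fbl was 0.0039 without a filter and 0.022 with limma-voom, and ran from −0.10 to 0.10 with 1 library left out. Rrp36 was 0.27 with limma-voom and ran from −0.71 to 0.79, Rrp9 from −1.24 to 0.22, Nop58 from −0.095 to 0.024 and Utp20 from −0.25 to 0.046. Utp18 was −0.012 with library size alone and ran from −0.0077 to 0.13. The causes were not tested. The 4 members below 10 CPM have intervals that reach a 2-fold change, and the part of depth in this was not tested.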
